A study of Mus musculus with 4 samples.

Results

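The superior colliculus, the visual and orienting centre in the roof of the midbrain, was measured on 1 of the 4 arrays of a study of mouse brain regions at embryonic day 17.5, and that array was set against the arrays of the cerebellum, the olfactory bulb and the pontine nucleus. The 4 groups were ICR embryos of the same age with no treatment or mutation named, and each consisted of dissected tissue combined from 16 mice for the superior colliculus, 13 for the cerebellum, 14 for the olfactory bulb and 15 for the pontine nucleus. Each pool was hybridised to 1 Affymetrix array, so there were no replicates and no SD or p-value could be had, and a region cannot be told apart from its single dissection and preparation. The labels give no dissection borders, and in a bulk sample fewer cells of a type and less RNA per cell cannot be told apart.

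Values are log2 signals, so that a difference of 1 is a 2-fold difference. The comparison took in the 10908 of 19938 named genes whose brightest array exceeded a floor of 8.56, the median over genes and arrays. The gap of a gene is its superior colliculus level minus the maximum of the other 3 arrays. Genes with a gap of 1 log2 unit or more were called higher, and genes at least as far under the minimum of the other 3 were called lower. Signals up to 7.33, the 95th percentile of 202 vomeronasal receptor and beta defensin genes used as background, are called background-level, and a fold against such a signal is given as a bound counted from 7.33. The superior colliculus array had a probe set median of 8.07, against 8.13, 8.1 and 8.11 for the cerebellum, olfactory bulb and pontine nucleus arrays. Its correlation over all probe sets was 0.985 with the cerebellum, 0.983 with the olfactory bulb and 0.979 with the pontine nucleus, values that describe genes and not replicates. Housekeeping genes lay close to equal, with Actb at 14.04 in the superior colliculus, 14.04 (cerebellum), 14.01 (olfactory bulb) and 14.07 (pontine nucleus).

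In the embryo the tectum arises from the dorsal midbrain, whose progenitors are set apart by paired-box and Otx homeobox genes and lie between the diencephalon in front and the isthmus behind. Its neurons fall into excitatory and inhibitory classes. The excitatory ones are marked by POU, LIM and AP-2 transcription factors, and the inhibitory ones by the Gata and Tal factors that select the GABAergic fate of the midbrain. Axons of retinal ganglion cells reach the superficial layers before birth, and ephrins and their receptors, Wnt ligands and adhesion molecules order these axons into a map.

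The size rule called 78 genes higher in the superior colliculus, 0.715% of the compared genes, and 18 lower, 0.165%. At a rule of 2 log2 units these counts were 15 genes higher, 0.138%, and 1 lower, 0.00917%. Over all compared genes the array was balanced, with 5417 genes over and 5425 genes under the mean of the other 3 regions and a median difference of 0. Transcription factors were the most frequent role given to the called genes. Of the 78 higher genes, 25 (32.1%) encode transcription factors or their cofactors, 16 receptors, channels or transporters, 10 proteins of intracellular signalling or trafficking, 9 proteins of adhesion, guidance or matrix and 4 enzymes or their relatives, by roles assigned after the calls were known. Among the 18 lower genes transcription factors made up 33.3%, a like share, and their share of all compared genes was not counted. By measured gap, transcription factors and cofactors made up 9 of the 10 widest gaps, 13 of the 20 widest and 17 of the 30 widest, and their median gap of 1.88 compares with 1.29 for receptors, channels and transporters. At the edge of the rule, Zim1 with a gap of 1.0 and Ache with 1.01 were called, while Cyp4x1 and Doc2b with 0.99 and Tacr1 with 0.98 were not. For lower genes E2f1 and Epha3 lay just inside at -1.01 and Eya1 just outside at -0.99.

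**Figure D1:**
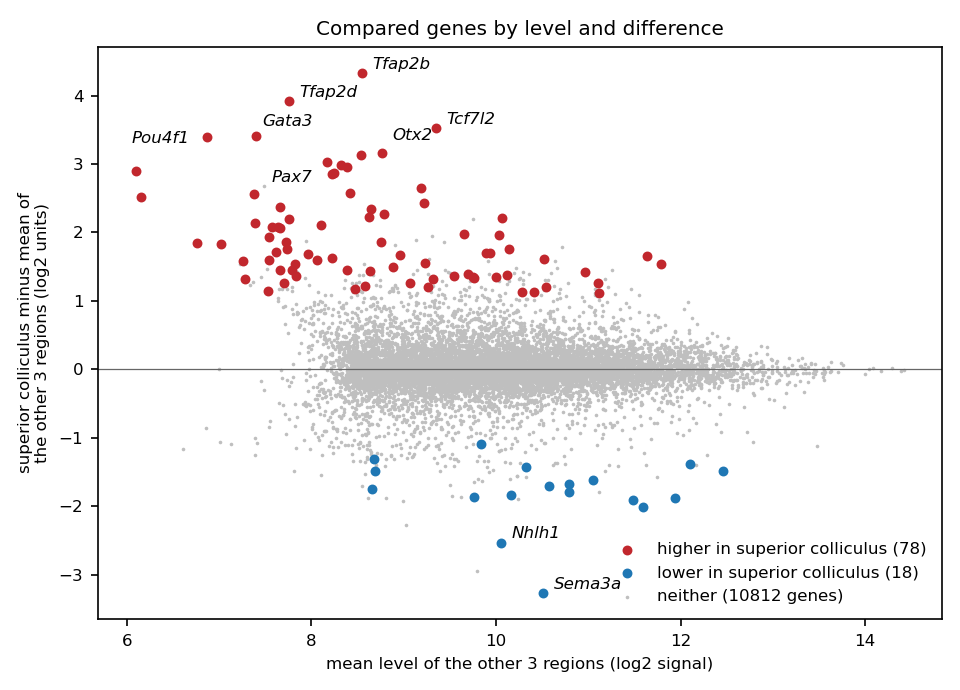
Each point is 1 of the 10908 compared genes, plotted by the mean log2 signal of the other 3 regions (x axis) and by the superior colliculus level minus that mean (y axis, log2 units). The 78 genes called higher (red) include several whose level elsewhere was near background, such as Pou4f1, and the 18 called lower (blue) reach down to Sema3a. Genes that are not called (grey) include some with a large difference, because the rule uses the highest or lowest of the other arrays and not their mean.

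All 5 genes used to check the label were highest in the superior colliculus, and all 5 were called higher. Tcf7l2 (probe set 10464084), which encodes a nuclear effector of Wnt signalling, read 12.88 in the superior colliculus, against 9.70 (cerebellum), 9.37 (olfactory bulb) and 8.99 (pontine nucleus). Pou4f1 (probe set 10422179), a POU homeobox gene of tectal projection neurons, read 10.27 in the superior colliculus and 7.19 (cerebellum), 6.75 (olfactory bulb) and 6.67 (pontine nucleus). Tfap2d (probe set 10345007), an AP-2 factor gene, read 11.68 in the superior colliculus, against 7.39 (cerebellum), 8.82 (olfactory bulb) and 7.06 (pontine nucleus). Tcf7l2 thus lay above the floor on every array and 9.06-fold above the next region, while Pou4f1 was background-level on the other 3 arrays and at least 7.66-fold higher. Gata3 (probe set 10479981), a zinc finger gene that selects GABAergic fate in the midbrain, read 10.80 in the superior colliculus, against 7.30 (cerebellum), 6.83 (olfactory bulb) and 8.06 (pontine nucleus). Pax7 (probe set 10517715), a paired-box gene of the dorsal midbrain, read 11.21 in the superior colliculus and 8.59 (cerebellum), 8.07 (olfactory bulb) and 7.86 (pontine nucleus). The gap of Gata3 was a 6.68-fold difference, set by the pontine nucleus, and that of Pax7 a 6.15-fold difference, set by the cerebellum. These markers were proposed with results of the same arrays known, so their order is a description.

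Genes that pattern the dorsal midbrain did not behave as 1 group. Of 20 listed and measured genes, 14 lay above the level floor. Of these, 3 were called higher and none lower, against 0.715% and 0.165% of all compared genes. This list and the gene lists below were chosen with earlier results of these data known, so their shares of calls are a description. The median difference from the mean of the other regions was 0.18 over the 14 and 0.03 over all 20. Besides Pax7, the called members were Dmbx1 and Otx2, homeobox genes of the midbrain and forebrain. Dmbx1 read 11.00 in the superior colliculus, against 9.34 (cerebellum), 7.98 (olfactory bulb) and 7.94 (pontine nucleus). Otx2 read 11.93 in the superior colliculus, against 10.70 (cerebellum), 8.56 (olfactory bulb) and 7.04 (pontine nucleus). Both therefore had their second highest level in the cerebellum and a step of over 1 log2 unit from there to the remaining regions. Otx2 also marks choroid plexus, and it was the only one of 9 measured choroid plexus genes above the floor on any array. The other 8, among them Ttr, Kl and Folr1, lay below it on all 4. Among listed genes that missed the rule, Pax3 read 9.75 in the superior colliculus and 10.59 (cerebellum), against 7.12 (olfactory bulb) and 7.75 (pontine nucleus). Genes of the isthmus and caudal midbrain lay low: En2 read 7.44 in the superior colliculus against 11.47 (cerebellum), and Cnpy1 7.51 against 10.91, while Pax5, Pax8, Fgf17 and Wnt1 lay below the floor on every array. Meis1 read 10.17 in the superior colliculus, against 11.92 (cerebellum), 10.88 (olfactory bulb) and 12.42 (pontine nucleus).

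Genes of midbrain excitatory neurons held 5 of the 78 calls. Of 17 measured members of the list of midbrain glutamatergic neurons, 15 lay above the floor. Of these, 5 were called higher (33.3%) and 1 lower (Nhlh1, 6.67%), against 0.715% and 0.165% of all compared genes. The median difference from the mean of the other regions was 0.91 over all measured members, against 0 for all compared genes. From single regions the median over the 15 was -0.12 (cerebellum), 1.01 (olfactory bulb) and 1.01 (pontine nucleus). The AP-2 gene Tfap2b read 12.88 in the superior colliculus, against 11.30 (cerebellum), 7.53 (olfactory bulb) and 6.82 (pontine nucleus). Lhx9, a LIM homeobox gene, read 11.68 in the superior colliculus, against 9.06 (cerebellum), 9.36 (olfactory bulb) and 7.21 (pontine nucleus). Barhl2, a homeobox gene of the dorsal midbrain and diencephalon, read 12.36 in the superior colliculus, against 10.61 (cerebellum) and 11.35 (olfactory bulb and pontine nucleus). These patterns differ from each other: Tfap2b was shared with the cerebellum, Lhx9 was near background only in the pontine nucleus, and Barhl2 was bright everywhere. Together with Pou4f1 and Tfap2d, which were also used to check the label, they complete the called members. Slc17a6, the vesicular glutamate transporter gene of midbrain excitatory neurons, read 12.22 in the superior colliculus, against 10.50 (cerebellum), 11.75 (olfactory bulb) and 11.77 (pontine nucleus), a gap of less than 1. Cbln2, a synaptic organiser gene, read 11.50 in the superior colliculus and 11.69 (olfactory bulb), against 10.19 (cerebellum) and 7.86 (pontine nucleus). The early B-cell factor gene Ebf3 read 12.19 in the superior colliculus and 12.62 (cerebellum), with 10.06 (olfactory bulb) and 10.54 (pontine nucleus). The AP-2 family as a whole was split, since Tfap2c and Tfap2e were brightest in the olfactory bulb, at 6.78 and 8.18 in the superior colliculus against 9.46 and 10.03 there.

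Genes of midbrain inhibitory neurons were represented by 3 calls. Of 16 measured members of that list 12 lay above the floor. Of these, 10 exceeded the mean of the other regions and 2 did not. Of all compared genes 49.7% exceeded that mean, and 0.715% were called higher. The median difference of the list was 0.92 over the 12 and 0.84 over all 16. Sox14, which encodes a high mobility group factor of inhibitory neurons in midbrain and thalamus, read 11.31 in the superior colliculus, against 8.98 (cerebellum), 7.97 (olfactory bulb) and 8.03 (pontine nucleus). Tal1, the basic helix-loop-helix partner of the Gata factors, read 9.66 in the superior colliculus, against 8.06 (cerebellum), 8.02 (olfactory bulb) and 8.12 (pontine nucleus). Gata2, which acts above Gata3, had a smaller gap, at 9.09 in the superior colliculus, 8.02 (cerebellum), 7.99 (olfactory bulb) and 8.44 (pontine nucleus). Gata2, Gata3 and Tal1 were thus all highest in the superior colliculus, and their levels on different probe sets are not set against each other. The general GABAergic genes were not set apart in this way. Gad1, the first of the glutamate decarboxylase genes, read 11.57 in the superior colliculus, against 11.03 (cerebellum), 11.51 (olfactory bulb) and 8.92 (pontine nucleus). Gad2 read 11.59 in the superior colliculus and 10.47 (cerebellum), 11.10 (olfactory bulb) and 9.20 (pontine nucleus). Both were highest in the superior colliculus by a small margin and lowest in the pontine nucleus.

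**Figure D2:**
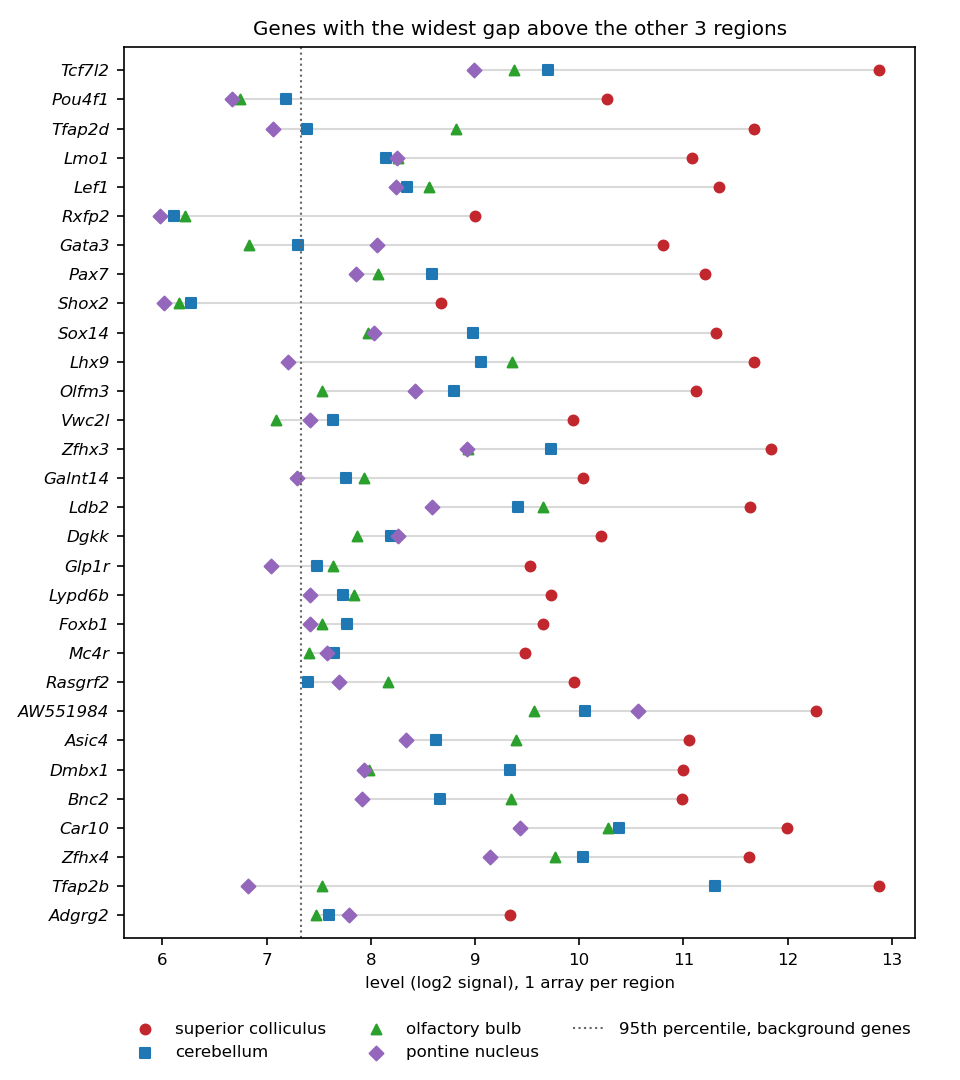
Log2 signals (x axis) of the 30 named genes with the widest gap, 1 row a gene in order of gap, with 1 point for each of the 4 regions and no error bars because each region had 1 array. The superior colliculus points lie at least 1.55 log2 units to the right of the next region in every row.

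Genes known from the thalamus and pretectum, which border the midbrain roof in front, accompanied these calls. Of 18 measured members of that list 12 lay above the floor. Of these, 4 were called higher and none lower, against 0.715% and 0.165% of all compared genes. The mean of the other regions was exceeded by 11 of the 12 and not by 1, where 49.7% of all compared genes exceeded it. The median difference was 0.97 over the 12 and 0.58 over all 18. The 4 calls were Tcf7l2, Lef1, Lhx9 and Barhl2, of which Lhx9 and Barhl2 also belong to the excitatory list. Lef1, the second Wnt effector gene among the calls, read 11.34 in the superior colliculus, against 8.35 (cerebellum), 8.56 (olfactory bulb) and 8.24 (pontine nucleus). Prox1 and Lhx2 were above that mean but had their highest level in another region. Prox1, a homeobox gene of several thalamic and pretectal neuron groups, read 9.95 in the superior colliculus and 11.15 (pontine nucleus), against 9.19 (cerebellum) and 7.44 (olfactory bulb). Lhx2 read 11.31 in the superior colliculus and 11.59 (olfactory bulb), against 8.40 (cerebellum) and 9.78 (pontine nucleus). Gbx2, a defining gene of thalamic neurons, and Olig3 lay below the floor on all 4 arrays. The habenula, another neighbour that expresses Pou4f1, had Gpr151 and Tac2 below the floor on every array, and its list had Pou4f1 as its 1 call. The median difference of the habenula list was 0.75 over the 8 members above the floor (5 positive and 3 negative) and 0.12 over all 11 measured. Any part of neighbouring tissue in the calls was not tested.

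The nuclear effectors Tcf7l2 and Lef1 were the only calls among the listed Wnt pathway genes. Of 14 measured effector and target genes, all above the floor, these 2 were called (14.3%), against 0.715% of all compared genes. The median difference of the 14 was 0.21. The pathway's target Axin2 read 10.18 in the superior colliculus, against 9.64 (cerebellum), 9.24 (olfactory bulb) and 9.55 (pontine nucleus). Tle4, a corepressor gene, read 10.91 in the superior colliculus, against 10.09 (cerebellum), 10.18 (olfactory bulb) and 8.86 (pontine nucleus). Both were highest in the superior colliculus, with gaps under 1. Of 19 measured ligand genes 7 lay above the floor, of 22 receptor genes 17 and of 17 antagonist genes 11. None of them was called, which in lists of this size cannot be told apart from the 0.715% of all compared genes. The median differences over all measured ligand, receptor and antagonist genes were 0.02, -0.09 and 0.11. Wnt3, whose ligand helps to order retinal axons in the tectum, read 9.28 in the superior colliculus, against 9.05 (cerebellum), 7.98 (olfactory bulb) and 8.44 (pontine nucleus).

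The promoters of the called genes were read for the letters that TCF and LEF factors, GATA factors and homeodomain factors are known to bind, because genes of these 3 families are among the calls. In the 250 bases before the start, TCF/LEF letters (CTTTGA followed by A or T, on either strand) stood in 6 of 80 promoters of 58 higher genes, or 7.5%, and in 7.48% of all 32851 promoters in the RefSeq table. GATA letters (GATA after an A or T and before an A or G, on either strand) stood in 26.2% of the promoters of higher genes and in 26.5% of all promoters. The homeodomain letters TAATTA, which read the same on both strands, stood in 6.25% against 4.84%. In the 14 promoters of 13 lower genes, TCF/LEF letters stood in 0, GATA letters in 6 and TAATTA in 1. For the higher genes the share with TCF/LEF or GATA letters was close to that of all promoters, while the lower genes had GATA letters in 42.9% of few promoters. Of the 6 higher genes with TCF/LEF letters, Bnc2, Fign, Lmo1, Mecom, Sox14 and Vsnl1, the 2 with the widest gaps are printed, with the matched letters in capitals. The sequences are from RefSeq, assembly GRCm38.p6, minus strand, at chr7:109175208-109175457 for Lmo1 and chr9:99876171-99876420 for Sox14. That of Lmo1 holds the TCF/LEF letters in reverse, TTCAAAG, and TAATTA. That of Sox14 holds a GATA match in reverse, CTATCA, and CTTTGAA near its end.
Lmo1: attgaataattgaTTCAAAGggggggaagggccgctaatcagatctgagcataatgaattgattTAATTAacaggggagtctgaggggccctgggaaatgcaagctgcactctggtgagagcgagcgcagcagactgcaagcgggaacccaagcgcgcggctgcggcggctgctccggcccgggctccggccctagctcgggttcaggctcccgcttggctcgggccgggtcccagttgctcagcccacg
Sox14: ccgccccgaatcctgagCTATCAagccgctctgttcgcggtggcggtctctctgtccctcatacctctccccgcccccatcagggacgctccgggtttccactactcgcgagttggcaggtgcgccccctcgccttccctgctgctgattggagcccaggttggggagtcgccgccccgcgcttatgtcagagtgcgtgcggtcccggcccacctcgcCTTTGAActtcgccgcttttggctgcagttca

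A match of these letters is a description of the window and not a binding site. Lmo1, which encodes a LIM-only cofactor, read 11.08 in the superior colliculus, against 8.15 (cerebellum), 8.26 (olfactory bulb) and 8.25 (pontine nucleus). Its level was nearly flat over the other 3 regions. Ldb2, whose product bridges LIM proteins, read 11.64 in the superior colliculus, against 9.41 (cerebellum), 9.65 (olfactory bulb) and 8.59 (pontine nucleus). With Lhx9 these were the called members of the list of LIM homeobox and LIM-only genes, of which 11 of 17 measured lay above the floor. The 3 calls were 27.3% of the 11, against 0.715% of all compared genes. The median difference was 0.90 over the 11 but 0.04 over all 17. Lmo3 read 12.23 in the superior colliculus and 11.43 (pontine nucleus), against 10.43 (cerebellum) and 10.07 (olfactory bulb). Lmo4 was lower than the mean of the others, at 11.42 in the superior colliculus, 11.36 (cerebellum), 11.91 (olfactory bulb) and 13.12 (pontine nucleus).

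The remaining transcription factor calls came from several families. Zfhx3, Zfhx4 and Zfhx2, which encode very large zinc finger homeodomain proteins, were all called. Zfhx3 read 11.84 in the superior colliculus, against 9.73 (cerebellum), 8.93 (olfactory bulb) and 8.92 (pontine nucleus). Zfhx4 read 11.63 in the superior colliculus and 10.04 (cerebellum), 9.77 (olfactory bulb) and 9.14 (pontine nucleus). Zfhx2 read 11.49 in the superior colliculus and at most 10.20 elsewhere, in the cerebellum. The order of the regions was the same for all 3. Shox2, a homeobox gene, read 8.67 in the superior colliculus, against 6.28 (cerebellum), 6.16 (olfactory bulb) and 6.02 (pontine nucleus), so that it was at least 2.53-fold higher. Foxb1, a forkhead gene, read 9.65 in the superior colliculus and at most 7.77 elsewhere, and the zinc finger gene Bnc2 10.99 against at most 9.35. Onecut1, a cut homeodomain gene, read 9.58 in the superior colliculus against at most 8.03 elsewhere. Irx6, of the Iroquois homeobox family, read 8.96 against at most 7.72 and was the only one of 6 measured Iroquois genes to be called. Mecom read 8.67 against at most 7.63, but its second probe set read 7.22 in the superior colliculus and 6.96 to 7.14 elsewhere.

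Receptor, channel and transporter genes made up 16 of the calls, and several encode receptors for peptides. Rxfp2 (probe set 10527713), the receptor gene of insulin-like peptide 3, known from testis descent, read 9.00 in the superior colliculus, against 6.11 (cerebellum), 6.22 (olfactory bulb) and 5.98 (pontine nucleus). All of the other 3 levels were background-level, and the gene was at least 3.18-fold higher in the superior colliculus. Glp1r, the receptor gene of glucagon-like peptide 1, read 9.53 in the superior colliculus, against 7.48 (cerebellum), 7.64 (olfactory bulb) and 7.04 (pontine nucleus). Mc4r, the melanocortin receptor gene of hypothalamic feeding circuits, read 9.48 in the superior colliculus and 7.65 (cerebellum), 7.41 (olfactory bulb) and 7.58 (pontine nucleus). Tacr3, the receptor gene for neurokinin B, read 9.14 in the superior colliculus, against 8.04 (cerebellum), 7.22 (olfactory bulb) and 7.38 (pontine nucleus). These were dim genes on every array but 1, with levels in the superior colliculus within 1 log2 unit of the floor. Of 29 measured genes of neuropeptide and relaxin receptors only 14 passed the floor, Rxfp2 and Tacr3 among them, and the median difference was 0.55 over the 14 and 0.22 over all 29. Tacr1, the substance P receptor gene, read 9.55 in the superior colliculus and at most 8.57 elsewhere. Its peptide gene Tac1 read 10.16 in the superior colliculus and 9.63 (olfactory bulb), against 7.64 (cerebellum) and a background-level 5.19 (pontine nucleus).

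Genes of glutamate receptor subunits were called 3 times. Grin2a, whose NMDA receptor subunit increases as synapses mature, read 9.36 in the superior colliculus, against 8.12 (cerebellum), 8.13 (olfactory bulb) and 7.21 (pontine nucleus). Grin2d, a subunit of early NMDA receptors, read 10.62 in the superior colliculus and 9.41 (cerebellum), 8.97 (olfactory bulb) and 8.49 (pontine nucleus). Grin3a, which encodes a modulatory subunit, read 11.74 in the superior colliculus, against 10.70 (cerebellum), 10.49 (olfactory bulb) and 10.44 (pontine nucleus). Grin2b, the main fetal subunit gene, was not set apart, at 11.89 in the superior colliculus, 10.43 (cerebellum), 11.42 (olfactory bulb) and 12.05 (pontine nucleus). The gap of Grin3a was 1.04, among the narrowest of the calls, and Grin3a lost its call under quantile normalization and under median centring, which leaves 2 of the 3. Cacng3, whose product escorts AMPA receptors, read 10.85 in the superior colliculus, against 9.32 (cerebellum), 8.66 (olfactory bulb) and 7.90 (pontine nucleus).

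**Figure D3:**
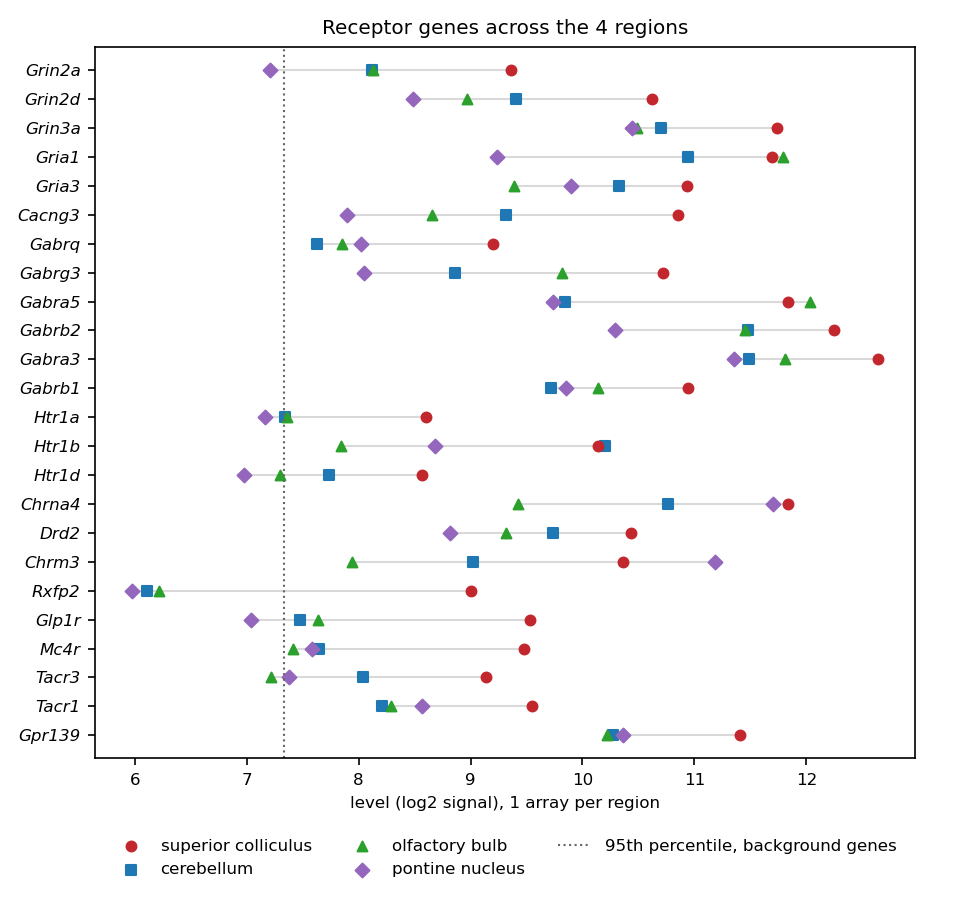
Log2 signals of selected receptor genes and of Cacng3, with 1 point for each of the 4 regions per gene and no error bars. Some of these genes were called higher, and others, among them Gabra5, Htr1b and Chrm3, were not. The other 3 points of Rxfp2 lie in the range of the background genes, so that its measured gap of 2.78 is read as at least 3.18-fold.

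Inhibitory receptor genes lay mostly above the mean of the other regions, with a single call. Of 18 measured genes for GABA and glycine receptors 14 lay above the floor. Of these, 12 exceeded the mean of the other regions and 2 did not, where 49.7% of all compared genes exceeded it. A further count had 7 of the 14 highest in the superior colliculus, where 24.0% of all compared genes were. The median difference was 0.60 over the 14 and 0.56 over all 18. The call was Gabrq, a rare GABA-A subunit gene, at 9.20 in the superior colliculus, 7.63 (cerebellum), 7.85 (olfactory bulb) and 8.02 (pontine nucleus). Gabrg3 read 10.72 in the superior colliculus, against 8.86 (cerebellum), 9.82 (olfactory bulb) and 8.05 (pontine nucleus). Gabra5 read 11.84 in the superior colliculus and 12.03 (olfactory bulb), against 9.84 (cerebellum) and 9.74 (pontine nucleus). Of 27 measured genes for acetylcholine and monoamine receptors 18 passed the floor, with a median difference of 0.70 over these and 0.43 over all 27. The serotonin receptor gene Htr1a was the call, at 8.60 in the superior colliculus, just above the floor, and at most 7.36 elsewhere. Htr1b read 10.14 in the superior colliculus and 10.20 (cerebellum), against 7.84 (olfactory bulb) and 8.68 (pontine nucleus). The nicotinic receptor gene Chrna4 read 11.84 in the superior colliculus and 11.70 (pontine nucleus), against 10.76 (cerebellum) and 9.42 (olfactory bulb). No potassium channel gene was called among 36 measured, of which 29 lay above the floor, and the median difference over the 36 was 0.20. The proton-gated channel relative Asic4 read 11.05 in the superior colliculus and at most 9.39 elsewhere, and the orphan receptor gene Gpr139 11.41 and at most 10.36. Ache, which encodes the enzyme that breaks down acetylcholine, read 10.33 in the superior colliculus, against 9.31 (cerebellum), 9.32 (olfactory bulb) and 8.57 (pontine nucleus).

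Intracellular signalling genes included bright ones. Vsnl1, a neuronal calcium sensor gene, read 13.32 in the superior colliculus, against 11.83 (cerebellum), 11.75 (olfactory bulb) and 11.78 (pontine nucleus). Rasgrf2, an exchange factor gene for Ras, read 9.95 in the superior colliculus and at most 8.17 elsewhere, and Dgkk, a diacylglycerol kinase gene, 10.21 and at most 8.26. Hap1, which encodes a partner of huntingtin, read 11.64 in the superior colliculus and at most 10.21 elsewhere. The Ras-like gene Rit2 read 12.38 in the superior colliculus and at most 11.05 elsewhere. Among 21 measured genes of calcium-binding proteins Vsnl1 was the 1 call, and the median difference was 0.39. Necab1 read 11.95 in the superior colliculus and 11.17 (cerebellum), against 10.26 (olfactory bulb) and 7.83 (pontine nucleus).

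Genes of adhesion and of synaptic contact formed a further group, with narrow gaps except for Olfm3. Olfm3, which encodes a secreted olfactomedin, read 11.12 in the superior colliculus, against 8.80 (cerebellum), 7.53 (olfactory bulb) and 8.42 (pontine nucleus). Of 30 measured cadherin and protocadherin genes 26 lay above the floor. Among the 26, 16 were highest in the superior colliculus, where 24.0% of all compared genes were. The 3 called genes were 11.5% of the 26, against 0.715% of all compared genes. Pcdh18 read 11.90 in the superior colliculus, against 10.57 (cerebellum), 10.53 (olfactory bulb) and 9.34 (pontine nucleus). Cdh13, the cadherin gene without a cytoplasmic domain, read 12.13 in the superior colliculus and 10.81 (cerebellum), 10.45 (olfactory bulb) and 10.29 (pontine nucleus). Pcdh8 read 9.84 in the superior colliculus, against 8.80 (cerebellum), 8.62 (olfactory bulb) and 7.73 (pontine nucleus). Its gap of 1.04 became 0.98 under median centring, so that it lost its call there. For all 3 the pontine nucleus was the lowest region. Cdh12 read 11.12 in the superior colliculus, against 10.54 (cerebellum), 10.32 (olfactory bulb) and 8.21 (pontine nucleus). Pcdh11x read 12.14 in the superior colliculus, against 10.79 (cerebellum), 11.66 (olfactory bulb) and 9.55 (pontine nucleus). Some members were brighter in 1 other region. Cdh7 read 10.25 in the superior colliculus against 11.56 in the pontine nucleus, and Cdh9 read 9.07 against 11.50 in the cerebellum. These 2 were chosen after their values were seen, and each is set against its brightest region only. Over the 26 genes above the floor the lowest difference from the mean of the other regions was -0.64.

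Synaptic adhesion genes among the calls were Nlgn1, a neuroligin gene, at 11.54 in the superior colliculus and at most 10.47 elsewhere, Lrrtm3 at 11.60 and at most 10.57, and Slitrk1 at 10.91 and at most 9.86. Dscam, which encodes a homophilic adhesion molecule of axon and dendrite spacing, read 12.23 in the superior colliculus and at most 11.14 elsewhere. These 4 gaps lay between 1.03 and 1.09. In the list of synapse and neuronal maturation genes, 22 of 26 exceeded and 4 fell short of the mean of the other regions. Of all compared genes 49.7% exceeded that mean. The median difference of the list was 0.28, and Grin2a was its 1 call. Gria3 read 10.93 in the superior colliculus, against 10.33 (cerebellum), 9.39 (olfactory bulb) and 9.90 (pontine nucleus).

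Guidance genes gave few calls. Slit1, a repellent ligand gene, read 11.09 in the superior colliculus, against 9.98 (cerebellum), 9.90 (olfactory bulb) and 9.21 (pontine nucleus), and was the 1 call among 20 measured Slit, Robo, netrin and draxin genes. None of the ephrin and Eph receptor genes was called higher, and 1 of 14 measured in the A class was called lower. Efna2, an ephrin-A ligand gene of the tectum, read 11.32 in the superior colliculus, against 10.48 (cerebellum), 10.76 (olfactory bulb) and 10.64 (pontine nucleus). Efna5, the other classical ligand gene of the retinotectal map, lay below the other arrays, at 10.34 in the superior colliculus, 10.76 (cerebellum), 11.24 (olfactory bulb) and 11.56 (pontine nucleus). The 2 map ligands thus differed in direction, with gaps under 1 log2 unit each. Among the receptors, Epha8 read 10.06 in the superior colliculus, against 9.41 (cerebellum), 8.18 (olfactory bulb) and 9.05 (pontine nucleus), and Ephb1 11.06, against 10.26 (cerebellum), 8.93 (olfactory bulb) and 10.47 (pontine nucleus). Whole dissected tissue does not resolve the graded expression along the map axes.

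Of the 18 lower genes, 6 encode transcription factors, 4 adhesion, guidance or matrix proteins and 3 proteins of DNA replication, division or the nuclear envelope. Sema3a (probe set 10519717), which encodes a secreted repellent of axons, stood furthest out, at 7.24 in the superior colliculus, against 10.78 (cerebellum), 10.24 (olfactory bulb) and 10.51 (pontine nucleus). It was background-level in the superior colliculus and at least 7.50-fold lower there than in the next region. No other member of its family was called in either direction, of 31 measured semaphorin, plexin and neuropilin genes with a median difference of -0.04. Sema3c, a relative, read 9.93 in the superior colliculus and 9.60 (olfactory bulb), against 7.84 (cerebellum) and 8.23 (pontine nucleus). Epha3, an ephrin-A receptor gene, read 9.11 in the superior colliculus, against 10.12 (cerebellum), 10.95 (olfactory bulb) and 11.29 (pontine nucleus). Vcan, the gene of the matrix proteoglycan versican, read 10.72 in the superior colliculus and 11.96 (cerebellum), 12.20 (olfactory bulb) and 12.14 (pontine nucleus). Nxph4, a neurexophilin gene, read 8.86 in the superior colliculus, against 11.15 (cerebellum), 9.94 (olfactory bulb) and 10.62 (pontine nucleus).

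The lower transcription factors included several that act in neuronal differentiation. Neurod2, a basic helix-loop-helix gene of differentiating excitatory neurons, read 9.58 in the superior colliculus, against 11.41 (cerebellum), 11.15 (olfactory bulb) and 12.22 (pontine nucleus). Nhlh1, of the same family, read 7.52 in the superior colliculus, against 10.68 (cerebellum), 8.97 (olfactory bulb) and 10.51 (pontine nucleus). Tcf4, the common partner of such factors, read 10.97 in the superior colliculus and 12.44 (cerebellum), 12.08 (olfactory bulb) and 12.85 (pontine nucleus). The basic helix-loop-helix list had 14 of 19 measured members above the floor. Of the 14, 1 was above the mean of the other regions (Tal1) and 13 below, where 49.7% of all compared genes were below. Its calls were 1 higher (7.14%) and 3 lower (21.4%), against 0.715% and 0.165% of all compared genes. The median difference of the list was -0.78 over the 14 and -0.68 over all 19. Pax6, a paired-box gene of cerebellar granule cells, pontine neurons and olfactory bulb interneurons, read 9.58 in the superior colliculus, against 11.64 (cerebellum), 11.05 (olfactory bulb) and 11.76 (pontine nucleus). Insm1, a zinc finger gene of newborn neurons, read 9.44 in the superior colliculus, against 11.23 (cerebellum), 11.17 (olfactory bulb) and 10.76 (pontine nucleus). E2f1, a cell cycle factor gene, read 8.90 in the superior colliculus, against 10.85 (cerebellum), 10.23 (olfactory bulb) and 9.91 (pontine nucleus).

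**Figure D4:**
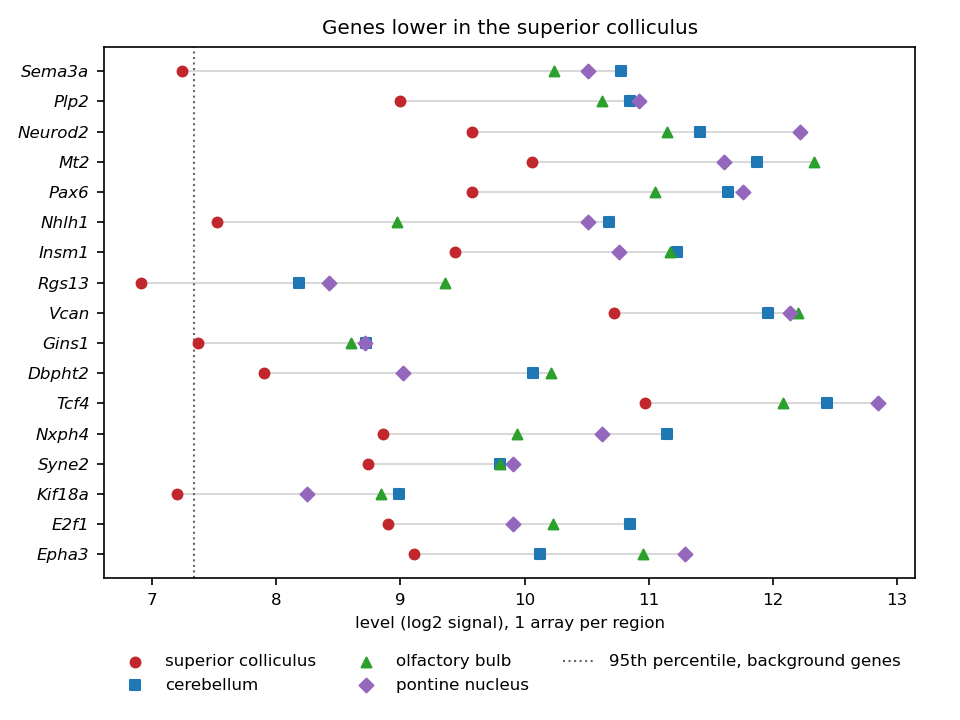
Log2 signals of the named genes called lower in the superior colliculus, 1 row a gene in order of the gap below the lowest other region, with 1 point for each of the 4 regions and no error bars. Sema3a, background-level in the superior colliculus, lies furthest below the next region, and the remaining genes lie between 1.01 and 1.62 below it.

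Division genes lay low as a list while none of its members met the rule. Of 29 measured genes 28 lay above the floor, all 28 were below the mean of the other regions, 26 were lowest in the superior colliculus, and the median difference was -1.11, where 22.4% of all compared genes were lowest there. The pontine nucleus was close to the superior colliculus: Kif11, a mitotic motor gene, read 8.68 in the superior colliculus, against 11.05 (cerebellum), 10.61 (olfactory bulb) and 9.04 (pontine nucleus). Outside the list, Gins1, of the replication helicase, was called lower at 7.37 in the superior colliculus, 8.72 (cerebellum), 8.60 (olfactory bulb) and 8.71 (pontine nucleus). Kif18a, another mitotic motor gene, was background-level at 7.2 in the superior colliculus and at least 1.89-fold lower than in the next region, the pontine nucleus at 8.25. Among 25 measured genes of radial glia and astrocytes, 23 lay above the floor. Of the 23, 21 were below the mean of the other regions, where 49.7% of all compared genes were, and none was called. The median difference was -0.15 over all 25. Gja1, an astrocyte connexin gene, read 9.01 in the superior colliculus, against 10.38 (cerebellum), 10.62 (olfactory bulb) and 9.50 (pontine nucleus). Id4 was the largest exception, at 11.57 in the superior colliculus, 10.63 (cerebellum), 10.47 (olfactory bulb) and 9.64 (pontine nucleus).

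Further lower genes were of mixed kinds. Mt2, a metallothionein gene, read 10.06 in the superior colliculus, against 11.87 (cerebellum), 12.33 (olfactory bulb) and 11.61 (pontine nucleus). Its neighbour Mt1 read 8.75 in the superior colliculus and at least 9.50 elsewhere, while Mt3 at 10.16 in the superior colliculus lay between the pontine nucleus at 9.85 and the cerebellum at 10.32. Plp2 read 9.00 in the superior colliculus and at least 10.62 elsewhere, and its other probe sets lay 1.59 and 1.51 below the lowest of the other regions. Syne2, a nuclear envelope gene, read 8.74 in the superior colliculus and at least 9.80 elsewhere, and its other 3 probe sets lay 0.57 to 1.02 below the lowest. Rgs13, a regulator of G protein signalling, read a background-level 6.91 in the superior colliculus and at least 8.18 elsewhere.

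Markers of other cell types gave no call apart from Otx2, which is also in the choroid plexus list. That list had a median difference of 0.02 over 9 measured genes. The medians of the lists without a call were 0.11 over 12 measured genes of endothelium and pericytes, -0.003 over 10 of microglia, 0.04 over 9 of the oligodendrocyte lineage, -0.18 over 12 of meninges and fibroblasts and -0.07 over 5 of red blood cells. The median level of the endothelial list was 9.13 in the superior colliculus, 8.89 (cerebellum), 9.12 (olfactory bulb) and 9.05 (pontine nucleus). The list of meninges and fibroblasts differed between arrays, with a median level over all measured genes of 8.04 in the superior colliculus, 7.58 (cerebellum), 8.75 (olfactory bulb) and 7.28 (pontine nucleus). Its part in the calls was not tested. Immediate early genes had a median difference of -0.07 over 14 measured members and housekeeping genes one of -0.07 over 10. Ventral midbrain genes were largely dim: 4 of 16 measured passed the floor, and Slc6a3, Foxa2 and Phox2a lay below it on every array. Differences of lists known from the other regions depended on the region compared. Over the 11 Hox genes above the floor the median difference was -2.91 from the pontine nucleus but -0.18 from the cerebellum and 0 from the olfactory bulb. Over the 15 forebrain genes it was -2.07 from the olfactory bulb but -0.03 from the cerebellum and 0.11 from the pontine nucleus, with Neurod2 as the 1 call. Over 12 granule lineage genes it was -1.80 from the cerebellum, -0.25 from the olfactory bulb and -0.90 from the pontine nucleus, with Pax6 as the 1 call. Over 12 Purkinje cell genes it was -0.65 from the cerebellum but 0.885 from the olfactory bulb and 1.07 from the pontine nucleus, and Ldb2 was called higher. Against the mean of the other regions the Purkinje list had a median of 0.56, with 8 genes above and 4 below, and the other 3 lists medians of -1.10 (Hox genes), -0.77 (forebrain) and -1.03 (granule lineage).

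**Figure D5:**
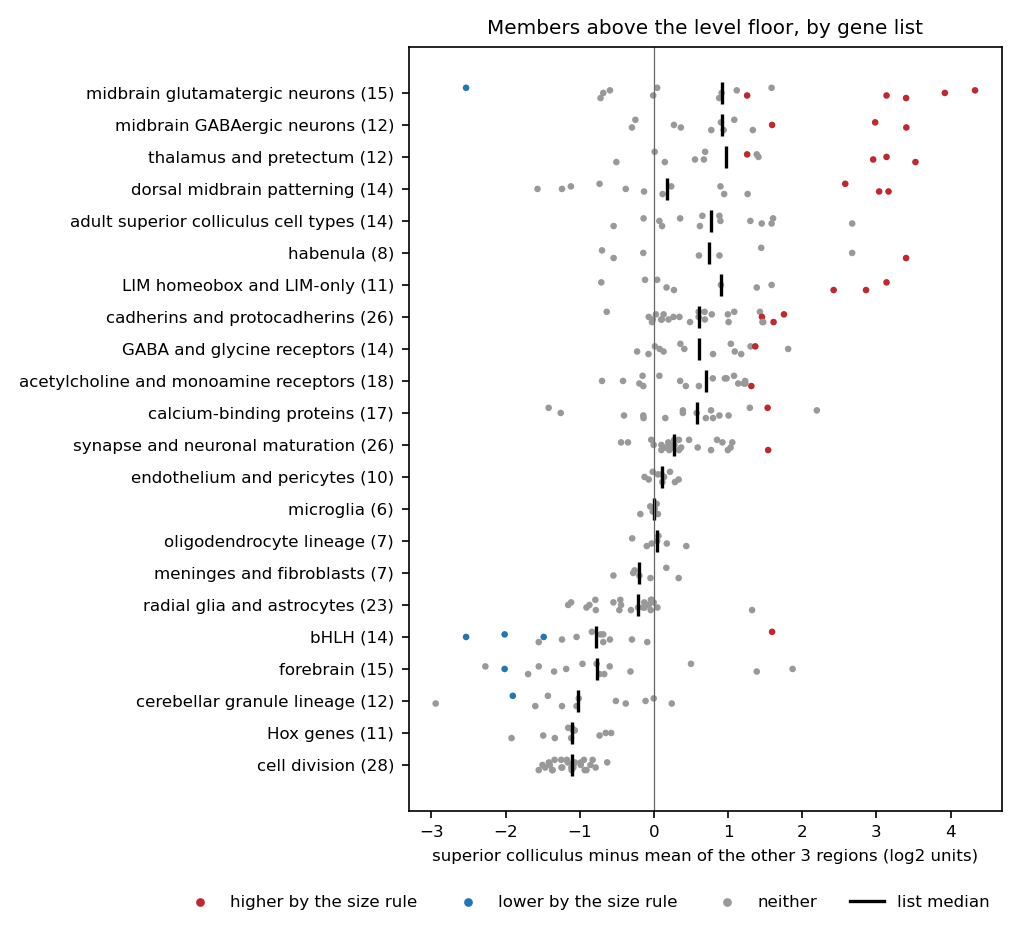
Each point is 1 list member above the level floor, placed by its superior colliculus level minus the mean of the other 3 regions (x axis, log2 units), in 1 row a list with the number of such members in brackets. Black bars are list medians, red points were called higher and blue points lower, and the division row lies wholly to the left of 0 without a blue point.

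The next region after the superior colliculus was most often the cerebellum. Among the 78 higher genes the cerebellum was second highest for 41 (52.6%), the olfactory bulb for 23 (29.5%) and the pontine nucleus for 14 (17.9%). Among all 2617 compared genes that were highest in the superior colliculus, these shares were 21.4%, 38.9% and 39.7%. The called genes thus had the cerebellum in second place more often than the full set of genes highest in the superior colliculus, of which they are a part, and no test was made. The pontine nucleus was lowest for 44 of the 78 (56.4%), against 29.1% of the 2617. In direct pairs, 449 genes (4.12%) lay at least 1 log2 unit above the pontine nucleus and 188 (1.72%) below it. Against the cerebellum the counts were 287 above (2.63%) and 336 below (3.08%), and against the olfactory bulb 298 above (2.73%) and 321 below (2.94%). The 3 comparisons share the superior colliculus array. Tfap2b, Otx2 and Tfap2d were among the genes furthest above the pontine nucleus, and Hoxa2 furthest below it, at 7.07 in the superior colliculus against 12.41.

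Many genes were shared by the superior colliculus with 1 other region and so missed the rule. When the cerebellum was left out of the comparison 56 more genes were called higher, when the olfactory bulb was left out 83 more, and when the pontine nucleus was left out 38 more. The examples that follow were chosen after their values were seen. Esrrb, an orphan nuclear receptor gene, read 9.48 in the superior colliculus and 8.97 (cerebellum), against 6.92 (olfactory bulb) and 7.26 (pontine nucleus). Emx2, a homeobox gene of the dorsal forebrain, read 9.81 in the superior colliculus and 10.13 (olfactory bulb), against 6.70 (cerebellum) and 6.99 (pontine nucleus). Onecut2, a relative of Onecut1, read 10.65 in the superior colliculus and 9.73 (pontine nucleus), against 9.03 (cerebellum) and 8.14 (olfactory bulb). Esrrb and Emx2 were thus high in a pair of regions and low in the other pair, while the levels of Onecut2 were spread in steps of similar size. Leaving out the pontine nucleus added 128 lower genes, of which 23 were in the division list, while leaving out the cerebellum added 16 and leaving out the olfactory bulb 23, with none of that list. Eomes, a T-box gene of excitatory precursors, read 6.85 in the superior colliculus and 6.66 (pontine nucleus), against 10.51 (cerebellum) and 12.21 (olfactory bulb).

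Likeness over the 4 regions was measured as the Euclidean distance between gene levels after each gene was centred on its own mean. Nearest to Tcf7l2 were Pou4f1 at a distance of 0.24, Pax7 at 0.45 and Sox14 at 0.68 log2 units, and nearest to Pax7 were Pou4f1 and Sox14 at 0.35 each and Zfhx3 at 0.39. Pou4f1 had the same neighbours, with Tcf7l2 at 0.24, Pax7 at 0.35 and Sox14 at 0.55. The other 3 levels of Pou4f1 were background-level, so its distances rest in part on background signal. Gata3 had no close neighbour, with Olfm3 at 0.95, Lmo1 at 1.0 and AW551984 at 1.06. Tfap2d had Lhx9 at 1.31, Tcf7l2 at 1.35 and Lef1 at 1.38. With 4 values a gene, of which the superior colliculus is 1, these distances describe the arrays and say nothing of shared function.

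Genes of cell types known from the mature superior colliculus lay mostly above the floor at embryonic day 17.5, without a call. Of 18 measured genes of that list 14 lay above the floor. Of these, 12 were above the mean of the other regions, where 49.7% of all compared genes were, and none was called. The median difference was 0.77 over the 14 and 0.52 over all 18. Rorb, a nuclear receptor gene of superficial layer neurons, read 10.90 in the superior colliculus, against 9.96 (cerebellum), 9.59 (olfactory bulb) and 8.79 (pontine nucleus). Npnt, the nephronectin gene, read 10.88 in the superior colliculus and 10.40 (olfactory bulb), against 9.55 (cerebellum) and 7.87 (pontine nucleus). Pvalb and Vip, markers of adult interneurons, lay below the floor on every array. Among 21 measured nuclear receptor genes none was called and the median difference was 0.22. Of the 17 above the floor 8 were highest in the superior colliculus, where 24.0% of all compared genes were, and the median difference was 0.43. Nr4a2 read 10.59 in the superior colliculus, against 8.99 (cerebellum), 9.62 (olfactory bulb) and 8.82 (pontine nucleus), and Nr2f2 11.75, against 11.11 (cerebellum), 9.82 (olfactory bulb) and 10.13 (pontine nucleus).

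Of the 78 higher genes, 51 belonged to none of the lists. Vwc2l, a gene for a secreted regulator of bone morphogenetic proteins, read 9.94 in the superior colliculus, against 7.64 (cerebellum), 7.09 (olfactory bulb) and 7.42 (pontine nucleus). Galnt14, an enzyme gene of mucin-type glycosylation, read 10.04 in the superior colliculus and 7.76 (cerebellum), 7.94 (olfactory bulb) and 7.29 (pontine nucleus). Lypd6b, of the family of nicotinic receptor modulators, read 9.73 in the superior colliculus, against 7.73 (cerebellum), 7.84 (olfactory bulb) and 7.42 (pontine nucleus). All 3 were dim outside the superior colliculus. Car10, a relative of the carbonic anhydrases, lay above the floor in all regions, at 11.99 in the superior colliculus, 10.38 (cerebellum), 10.28 (olfactory bulb) and 9.43 (pontine nucleus). AW551984 read 12.27 in the superior colliculus and at most 10.56 elsewhere, and the adhesion G protein-coupled receptor gene Adgrg2 read 9.34 and at most 7.79. Nova1, a splicing regulator gene, read 13.29 in the superior colliculus, against 12.23 (cerebellum), 10.48 (olfactory bulb) and 12.19 (pontine nucleus), and its second probe set had a gap of 0.65. The gap of Tmem196 was 1.04 on the probe set used and 0.24 on its second. A further 8 genes met the size rule without reaching the floor, among them Glra3, a glycine receptor subunit gene, at 8.23 in the superior colliculus and 5.63 to 5.69 elsewhere, and Gabrr1 at 8.13 and at most 6.78.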

How the data were processed

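Per the labels' protocols, Trizol and then RNeasy columns gave total RNA, from which the Ambion WT Expression Kit made sense-strand cDNA for Affymetrix WT terminal labelling. Affymetrix Expression Console was used, per the submitters' processing notes. Not given in the sources used here are its version, algorithm and normalization and the genome build. The authors' deposited table held 1 value for each of 35556 probe sets and 4 arrays, and its log2 scale was inferred from the range of 2.43 to 14.57. Scaling between arrays, which the near-equal medians point to, can remove differences in total RNA, and signals near background compress folds.

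Of the probe sets, 21789 had 1 symbol in the array's annotation table, 1621 had several and 12146, with none, are unnamed here. By Entrez ID, 21698 of the 21789 matched RefSeq GRCm38.p6, which changed 0 symbols. The highest-mean probe set was used for each of 999 genes with several. Genes were compared above 8.56, the 50th percentile of gene levels, and called at 1 log2 unit beyond the highest or lowest of the other arrays. With 1 array a region no test was possible. The background genes had a median level of 5.20 and differences of -0.60 to 0.46 from the mean of the other arrays, with 0 past the rule.

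The members, the 50 gene lists (794 genes, 748 measured) and the roles were chosen with earlier results of these data known. Named were the called genes without Gm, Rik and small RNA names (74 of 78 higher and 17 of 18 lower), the members of each list past the rule with up to 4 more of the largest difference, and genes marked as chosen after their values were seen. The rule was tested on simulated data, and its error rate in these data is not known because each region had 1 array. Promoters came from RefSeq, without the 50 bases after the start. Alternatives were 3 other floors, quantile normalization, median centring, the mean of probe sets, 2 log2 units, the mean of the other arrays, and each other array left out. Scripts ran under Python 3.11.15 with Matplotlib 3.10.9 for plots and NumPy 2.4.6, SciPy 1.17.1 and pandas 2.3.3 for tables.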

Additional observations from a re-analysis of the deposited data

Results flagged for a closer look

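Probe sets outside the named genes met the same size rule in the superior colliculus. Of 12146 probe sets without an annotation entry, 3792 passed the level floor, and of these 2 met the rule as higher and 3 as lower. Probe set 10407929 had a gap of 1.25, at 9.46 in the superior colliculus, 8.21 (cerebellum), 7.70 (olfactory bulb) and 7.81 (pontine nucleus). Probe set 10369750 had a gap of 1.15, at 8.66 in the superior colliculus, 7.51 (cerebellum), 7.23 (olfactory bulb) and 6.93 (pontine nucleus). Among 791 probe sets with several symbols above the floor 1 was higher. It is 10481349, annotated to Ntng2, a netrin-G gene, and to a Rik transcript, with a gap of 1.14, at 11.16 in the superior colliculus, 10.02 (cerebellum), 8.58 (olfactory bulb) and 8.05 (pontine nucleus). With 1 array a region no array could be compared with others of its own group.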

How the results depend on the processing

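No paired analysis was possible because each region had 1 array. The count of 78 higher genes was 86 with no floor, 83 with a floor at background level, 75 after quantile normalization, 70 after centring on the compared genes, 75 with the mean of probe sets and 116 without the pontine nucleus. A floor at the 75th percentile gave 49, and the count was 15 at 2 log2 units, 241 against the mean of the other arrays, 134 without the cerebellum and 161 without the olfactory bulb. The count of 18 lower genes was 18, 18, 17, 19 and 17 under the first 5 of these settings, 14 with the higher floor, 1 at 2 log2 units, 179 against the mean, and 34, 41 and 146 without the cerebellum, the olfactory bulb and the pontine nucleus. Fewer arrays or a milder comparator can only add calls. Quantile normalization lost Ache, Grin3a, Lrrtm3, Zim1 and E2f1. Centring lost Barhl2, Mecom, Pcdh8 and Tmem196 besides Ache, Grin3a, Lrrtm3 and Zim1. The mean of probe sets lost Mecom, Nova1, Tmem196 and Syne2. No called gene changed sign in 7 settings, but the mean of the other arrays and each array left out could not narrow a gap. The median difference of the forebrain list, -0.77, was 0.03 without the olfactory bulb. That of the neuropeptide and relaxin receptor list, 0.55, was -0.52 with the higher floor, which left 5 members. The higher floor removed dim members such as Rxfp2 and Tacr3, and the cause of the second change was not tested. Signals near background limit the folds of 5 higher and 3 lower genes to bounds.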
